A study of Mus musculus with 8 samples.

Results

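A set of 10 genes of the injured or transitional state of the alveolar epithelium was followed across sorted mouse lung epithelial cells of 3 genotypes. They are the simple epithelial keratins Krt7, Krt8, Krt18 and Krt19, the p53 target genes Cdkn1a, Mdm2, Gdf15 and Sfn, the growth factor gene Areg and the galectin gene Lgals3. The rows were found by matching each Ensembl identifier to its symbol, and all 10 were present among 43432 genes and passed the filter on low counts. In the homozygous ChiaRed cells, Cdkn1a, Sfn, Krt8 and Gdf15 rose 1.80-fold to 2.74-fold over the heterozygous cells, while Mdm2 showed no change past the test. Between heterozygous ChiaRed and wild-type cells none of the 10 passed the test.

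Keratins are intermediate filament proteins that assemble from a type I and a type II partner. Krt8 and Krt7 are type II, Krt18 and Krt19 are type I, and a high level of Krt8 marks the state through which alveolar type 2 cells pass after injury on the way to type 1 cells. The transcription factor p53 is stabilised by cell stress and switches on genes that halt the cell cycle, such as Cdkn1a and Sfn, and also Mdm2, whose product sends p53 for degradation and so closes a feedback loop. Areg, Lgals3 and Gdf15 encode secreted proteins that rise in many kinds of epithelial stress.

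The libraries came from EpCAM+CD45- lung cells of C57BL/6J mice aged 14 weeks. Wild-type (WT) cells, with 3 libraries, were the whole EpCAM+CD45- gate. Heterozygous ChiaRed (C/+) cells, with 3 libraries, and homozygous ChiaRed (C/C) cells, with 2, were sorted from that gate as ChiaRed+, the reporter of cells that express acidic mammalian chitinase (AMCase, gene Chia1). WT therefore differed from both reporter groups in sort as well as in genotype, and these cannot be told apart, whereas C/C and C/+ shared the sort. The labels do not say whether the libraries of a group came from separate mice, or whether cells of several mice were pooled. The p-values thus measure only the spread between these libraries, which may be technical in part. By their expression, WT and C/+ each held female and male libraries, which cannot all have come from the same mouse. Both C/C libraries read as female, so this cannot be told for C/C. In bulk libraries a change in how many cells of a type were sorted and a change in RNA per cell cannot be told apart.

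Chia1 averaged 382 (WT), 289 (C/+) and 0.905 (C/C) CPM, which are counts scaled to each library's total, and so was nearly absent from the libraries labelled homozygous. The epithelial gate gene Epcam averaged 172 (WT), 181 (C/+) and 180.3 CPM (C/C), and the leukocyte gene Ptprc did not exceed 1.80 CPM in any library. Total counts ran from 17057216 to 52319957 per library. Expression of Xist and of Y-linked genes marked both C/C libraries, C/+ replicates 2 and 3 and WT replicate 1 as female and the other 3 libraries as male. The C/+ libraries also held more RNA of other cells: their summed endothelial marker level was 513 to 857 CPM, against 57.6 to 268 CPM in WT and 39.9 to 47.7 CPM in C/C.

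**Figure D1:**
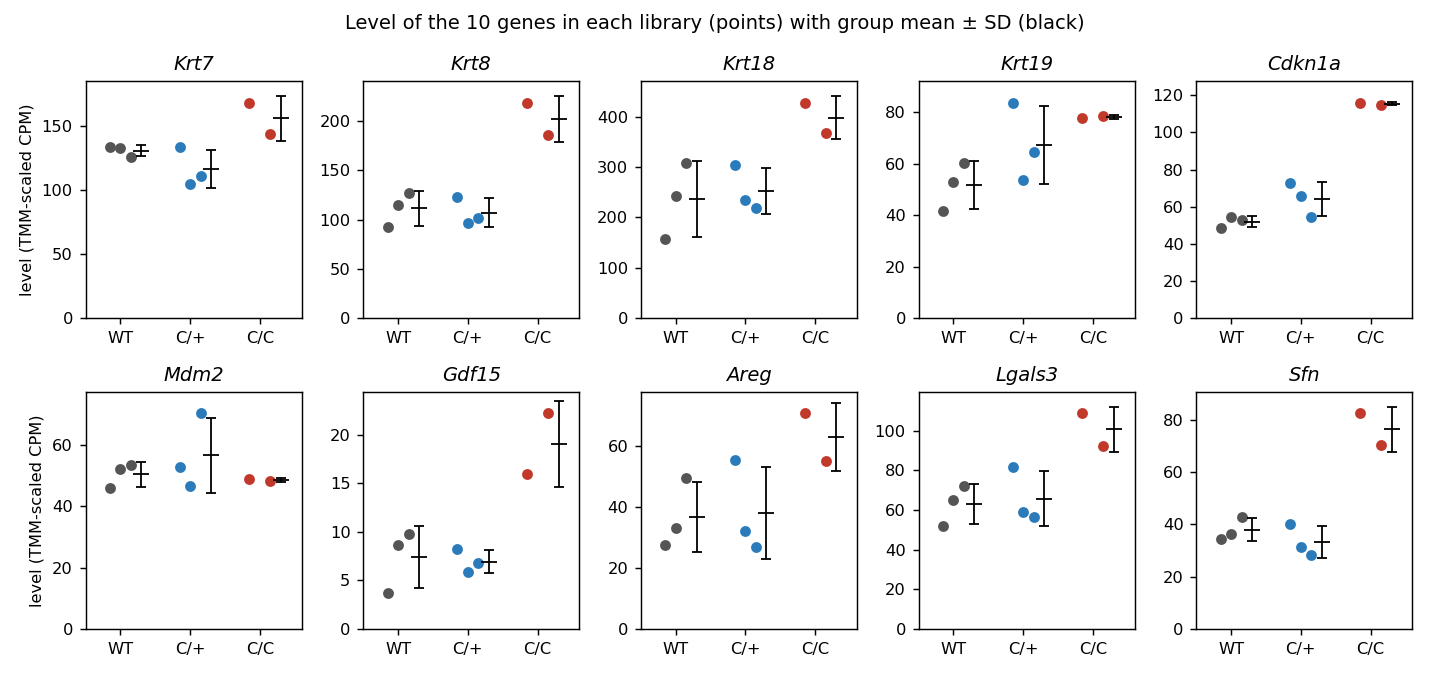
Level of each of the 10 genes in every library, in TMM-scaled CPM, with a point per library and the group mean and standard deviation in black. The 2 C/C libraries lie above all other libraries for Krt7, Krt8, Krt18, Cdkn1a, Gdf15, Lgals3 and Sfn, while Mdm2 shows no such gap. Of all tested genes, 38.3% had no overlap between C/C and C/+ and 43.3% none between C/C and WT.

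Among the keratins, Krt8 (ENSMUSG00000049382) carried the change that passed the test. Its level was 92.7, 115 and 127 CPM in the WT libraries, 123, 96.5 and 101.5 CPM in C/+, and 219 and 186 CPM in C/C. Both C/C libraries were thus above each of the other 6, and the WT and C/+ libraries were intermixed. Krt8 rose 1.89-fold from C/+ to C/C (log2 fold change 0.92, SE 0.15, edgeR adjusted p = 0.00582) and 1.81-fold from WT to C/C (log2 0.86, SE 0.15, edgeR adjusted p = 0.0242). Of the 14906 genes tested, 7.08% were called between C/C and C/+, 1.75% as higher and 5.33% as lower, and 2.98% were called between C/C and WT. The call against C/+ was lost without C/C replicate 1 (edgeR adjusted p = 0.0866). Against WT it was lost without WT replicate 2 (0.0833), C/C replicate 1 (0.239) or C/C replicate 2 (0.122), and with the replicate block (0.0603).

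Krt18, the type I partner of Krt8, had the highest level per transcript length of the 10 genes in every group. Its level was 158, 243 and 308 CPM in WT, 303, 235 and 219 CPM in C/+, and 428 and 368 CPM in C/C. The C/C libraries again lay above all others, but WT replicate 1 was far below its own group and widened the spread. The difference between C/C and C/+ was 0.66 on the log2 scale (SE 0.24, 95% interval 0.14 to 1.18, edgeR adjusted p = 0.138), and against WT it was 0.75 (SE 0.24, edgeR adjusted p = 0.0994), so neither passed. Without WT replicate 1, which enters the shared estimate of the spread, the difference from C/+ did pass (log2 0.64, edgeR adjusted p = 0.0289).

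Krt7 and Krt19, which in the lung are found in airway and type 1 cells as well as in injured alveoli, moved less. Krt7 stood at 134, 133 and 126 CPM in WT, 134, 105 and 111 CPM in C/+, and 169 and 144 CPM in C/C. Both C/C libraries were above all others, and the difference from C/+ did not pass (log2 0.42, SE 0.12, 95% interval 0.15 to 0.69, edgeR adjusted p = 0.0722), although it did without C/+ replicate 1 (log2 0.53, edgeR adjusted p = 0.0305). Krt19 was at 41.9, 53.04 and 60.5 CPM in WT, 83.8, 53.7 and 64.8 CPM in C/+, and 77.8 and 78.8 CPM in C/C. It was the keratin in which C/+ and C/C overlapped, with C/+ replicate 1 the highest library of all. Krt19 differed by 0.21 between C/C and C/+ (95% interval -0.20 to 0.63) and by 0.60 between C/C and WT (SE 0.19, edgeR adjusted p = 0.100).

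The 3 keratin genes of chromosome 15 lie close together on GRCm38: Krt7 at chr15:101411043-101430313 (+), Krt8 at chr15:101996698-102004482 (-) and Krt18 at chr15:102028180-102032027 (+). Krt19 lies at chr11:100140810-100148665 (-). Per kilobase of transcript, the ratio of Krt8 to Krt18 was 0.430, 0.347 and 0.304 for the WT libraries, 0.298, 0.302 and 0.340 for C/+, and 0.375 and 0.370 for C/C. The C/C libraries sat within the WT range, and WT replicate 1 had the highest ratio. The ratio of Krt7 to Krt8 per kilobase was 0.691, 0.556 and 0.473 for WT, 0.519, 0.522 and 0.524 for C/+, and 0.369 and 0.371 for C/C, lower in both C/C libraries than in any other. No test was made of these ratios. Krt18 took 50.8% to 61.5% of the summed level per kilobase of these 4 keratins across the 8 libraries.

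The other keratins held no call. Of 16 further keratin genes 5 passed the filter, and none was called in any of the 3 comparisons (unadjusted p under 0.05 for 1 gene between C/+ and WT and 0 in the others, and none by DESeq2). The most abundant, Krt23, averaged 127 (WT), 129.5 (C/+) and 147 CPM (C/C). Krt5, the keratin of basal cells, did not exceed 0.816 CPM and was at 0 counts in both C/C libraries. Cell junction and adhesion genes, some of them anchors of keratin filaments, also held no call among 10 tested. Unadjusted p was under 0.05 for 4, 0 and 2 of them in C/+ against WT, C/C against C/+ and C/C against WT. DESeq2 called 2, 0 and 0 in the same order. Cdh1, which encodes E-cadherin, averaged 796 (WT), 637 (C/+) and 707 CPM (C/C).

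Cdkn1a and Mdm2 are both classical p53 targets, but only Cdkn1a was called. The promoter of the upstream Cdkn1a start and that of Mdm2 are shown because both hold letters of the p53 recognition sequence, and those of Sfn and Krt8 because these are the other 2 members called in C/C against both groups. Each is 300 bases of RefSeq GRCm38.p6, from 250 before to 50 after an annotated start, read 5′ to 3′ on the gene's strand, with motif matches in capitals.
Cdkn1a, chr17:29090729-29091028 (+): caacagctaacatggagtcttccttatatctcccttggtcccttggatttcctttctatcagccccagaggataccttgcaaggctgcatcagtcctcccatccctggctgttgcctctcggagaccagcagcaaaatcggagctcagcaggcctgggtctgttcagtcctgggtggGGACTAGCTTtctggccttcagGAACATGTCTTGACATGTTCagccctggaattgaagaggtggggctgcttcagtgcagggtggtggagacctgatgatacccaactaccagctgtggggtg
Mdm2, chr10:117710709-117711008 (-): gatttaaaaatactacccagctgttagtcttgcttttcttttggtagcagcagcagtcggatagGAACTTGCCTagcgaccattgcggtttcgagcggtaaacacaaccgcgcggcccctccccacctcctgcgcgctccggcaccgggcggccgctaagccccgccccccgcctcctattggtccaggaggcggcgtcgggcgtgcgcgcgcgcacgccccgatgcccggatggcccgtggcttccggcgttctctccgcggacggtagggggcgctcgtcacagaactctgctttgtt
Sfn, chr4:133602119-133602418 (-): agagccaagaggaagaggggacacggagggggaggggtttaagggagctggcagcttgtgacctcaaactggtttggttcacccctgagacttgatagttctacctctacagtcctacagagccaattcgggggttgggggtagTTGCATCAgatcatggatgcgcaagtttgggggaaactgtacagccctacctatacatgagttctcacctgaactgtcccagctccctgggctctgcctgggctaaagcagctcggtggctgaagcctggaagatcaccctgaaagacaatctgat
Krt8, chr15:102004293-102004592 (-): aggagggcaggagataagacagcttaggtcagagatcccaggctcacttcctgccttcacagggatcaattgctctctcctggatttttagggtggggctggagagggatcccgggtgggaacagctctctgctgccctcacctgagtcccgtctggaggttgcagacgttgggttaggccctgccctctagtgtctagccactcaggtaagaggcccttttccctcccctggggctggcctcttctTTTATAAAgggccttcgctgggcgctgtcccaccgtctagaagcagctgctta

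In the Cdkn1a window the capitals mark a p53 half-site, GGACTAGCTT, at bases 178 to 187 and a full p53 site with 1 mismatch, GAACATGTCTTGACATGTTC, at bases 200 to 219. A full site with up to 1 mismatch was found in 29 of 32851 promoter windows of this length, or 0.0883%. The Mdm2 window holds the half-site GAACTTGCCT at bases 65 to 74, and a half-site was found in 8.36% of all windows. The Sfn window holds no p53 half-site within these 300 bases. It holds 1 match, on the other strand, to the C/EBP-ATF composite motif TGATGNAA at bases 145 to 152, which 3.97% of windows hold. In the Krt8 window the capitals mark TATAAA at bases 250 to 255, read on both strands with an overlapping match at bases 248 to 253, and 13.6% of windows hold this motif. The Krt8 match lies at the annotated start itself, as the window begins 250 bases before it. Entries were found for 9 of the 10 genes, in 11 windows. Both strands were searched for p53 sites, the AP-1 motif TGANTCA (7.81% of windows), the CRE motif TGACGTCA (1.79%), TGATGNAA, the CArG box (1.63%) and TATAAA. The Areg window, not shown, holds the CRE motif at bases 190 to 197 and TATAAA at bases 220 to 225. No match was found in the other windows not shown. A match is a description of letters, and a window without one says nothing of the factor.

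Cdkn1a (ENSMUSG00000023067, chr17:29090976-29100727, +) encodes p21, an inhibitor of cyclin-dependent kinases. Its level was 48.6, 54.3 and 52.6 CPM in WT, 72.7, 65.7 and 54.2 CPM in C/+, and 116 and 115 CPM in C/C. The C/C libraries were nearly equal and far above the rest, and the C/+ libraries reached down into the WT range only at replicate 3. Cdkn1a rose 1.80-fold from C/+ to C/C (log2 0.84, SE 0.12, edgeR adjusted p = 0.00314) and 2.23-fold from WT to C/C (log2 1.16, SE 0.12, edgeR adjusted p = 0.00173). Cdkn1a was called in both of these comparisons under each of the 16 other settings tried. Between C/+ and WT the difference was 0.31 (SE 0.11, 95% interval 0.06 to 0.56, edgeR adjusted p = 0.156), and it passed without C/+ replicate 3 (0.42, edgeR adjusted p = 0.0364) and with sex as a covariate (0.38, edgeR adjusted p = 0.0347).

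Mdm2 (chr10:117688875-117710758, -), which encodes the ubiquitin ligase that removes p53, did not follow Cdkn1a. It was at 45.8, 52.2 and 53.5 CPM in WT, 52.9, 46.5 and 70.3 CPM in C/+, and 49.0 and 48.1 CPM in C/C. The C/C libraries lay inside the range of both other groups, and C/+ replicate 3 was the highest library. The interval of the difference between C/C and C/+ ran from -0.57 to 0.14 on the log2 scale (edgeR adjusted p = 0.499) and that between C/C and WT from -0.41 to 0.30 (edgeR adjusted p = 0.879). The Cdkn1a interval against C/+, from 0.57 to 1.12, does not overlap with that of Mdm2, nor does the one against WT, from 0.88 to 1.43. The p53 gene Trp53 averaged 26.2 (WT), 30.8 (C/+) and 31.2 CPM (C/C). None of 10 tested genes for p53 and its regulators was called in any comparison (1, 0 and 3 at unadjusted p under 0.05 in C/+ against WT, C/C against C/+ and C/C against WT, with 0, 0 and 2 by DESeq2). Mdm4, the partner of Mdm2, averaged 131 (WT), 121.5 (C/+) and 109 CPM (C/C).

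Sfn (ENSMUSG00000047281, chr4:133600556-133602168, -) encodes 14-3-3 sigma, an epithelial protein that holds cells before mitosis and binds keratins. It was at 34.5, 36.4 and 42.9 CPM in WT, 40.1, 31.3 and 28.1 CPM in C/+, and 82.5 and 70.3 CPM in C/C. The lower C/C library was well above the highest of the other 6. Sfn rose 2.30-fold from C/+ to C/C (log2 1.20, SE 0.16, edgeR adjusted p = 0.00223) and 2.01-fold from WT to C/C (log2 1.01, SE 0.16, edgeR adjusted p = 0.0157). The first call stood in each of the 16 settings, and the second was lost without WT replicate 2 (edgeR adjusted p = 0.0708), C/C replicate 1 (0.177) or C/C replicate 2 (0.0769). Of the 6 other 14-3-3 genes only Ywhaz was called, in C/C against WT (152 against 214 CPM, log2 0.49, edgeR adjusted p = 0.0373). In that comparison 1.62% of all tested genes were called higher. All 6 differed in the positive direction there, 3 had an unadjusted p under 0.05, against 22.1% of all tested genes, and DESeq2 called 2.

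Gdf15 (ENSMUSG00000038508, chr8:70629393-70632456, -) encodes a secreted stress hormone of the TGF-beta family, and it was the lowest of the 10 genes in every group. It was at 3.75, 8.68 and 9.74 CPM in WT, 8.19, 5.88 and 6.76 CPM in C/+, and 16.0 and 22.2 CPM in C/C. The C/C libraries did not overlap with the others, though the ratio between them was wider than for the other 3 called genes. Gdf15 rose 2.74-fold from C/+ to C/C (log2 1.45, SE 0.34, edgeR adjusted p = 0.0271), and this call was lost without C/+ replicate 2 (0.102), C/+ replicate 3 (0.0559), C/C replicate 1 (0.0891) or C/C replicate 2 (0.226). Against WT the difference of 1.37 (SE 0.33) just missed the threshold (edgeR adjusted p = 0.0550) and passed without WT replicate 1 (1.03, edgeR adjusted p = 0.0386).

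Areg (chr5:91139599-91148432, +) encodes amphiregulin, a ligand of the EGF receptor, and Lgals3 (chr14:47367751-47386160, +) encodes galectin-3, a lectin that binds galactosides. Areg was at 27.4, 33.1 and 49.3 CPM in WT, 55.3, 32.0 and 26.9 CPM in C/+, and 70.7 and 55.1 CPM in C/C. The lower C/C library fell just short of C/+ replicate 1, and the difference of 0.72 between C/C and C/+ did not pass (95% interval 0.05 to 1.38, edgeR adjusted p = 0.202). Under 4 of the 16 other settings it passed, among them without C/+ replicate 1 (1.09, edgeR adjusted p = 0.0401). Lgals3 was at 52.0, 64.8 and 72.0 CPM in WT, 81.7, 59.1 and 56.3 CPM in C/+, and 109 and 92.4 CPM in C/C, with both C/C libraries above the rest. It differed by 0.61 between C/C and C/+ (SE 0.18, edgeR adjusted p = 0.0721) and by 0.68 between C/C and WT (SE 0.18, edgeR adjusted p = 0.0681). The Lgals3 difference from C/+ passed without WT replicate 1 (0.59, edgeR adjusted p = 0.0412) or C/+ replicate 1 (0.80, edgeR adjusted p = 0.0215). That from WT passed without C/+ replicate 1 (0.68, edgeR adjusted p = 0.0402) or C/+ replicate 3 (0.68, edgeR adjusted p = 0.0480).

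None of the 8 other EGF family genes tested was called in any comparison (2, 1 and 3 at unadjusted p under 0.05 in C/+ against WT, C/C against C/+ and C/C against WT, with 0, 0 and 1 by DESeq2), and the receptor Erbb3 averaged 198 (WT), 162 (C/+) and 153 CPM (C/C). Lgals3bp, which encodes a secreted glycoprotein that binds galectin-3 and is not itself a galectin, fell from 60.6 to 30.4 CPM between C/+ and C/C (log2 -0.99, edgeR adjusted p = 0.00232), opposite in sign to Lgals3. Among the other galectin genes Lgals2 was called between C/C and C/+, falling from 1.79 to 0.146 CPM, where 5.33% of all tested genes were called lower. Lgals2 averaged 0.0823 CPM in WT and was called higher in C/+ than in WT (log2 4.435, edgeR adjusted p = 0.0116). Among 5 other genes of cyclin-dependent kinase inhibitors, Cdkn2b rose from 4.90 to 7.98 CPM between C/+ and C/C (log2 0.70, edgeR adjusted p = 0.0494).

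**Figure D2:**
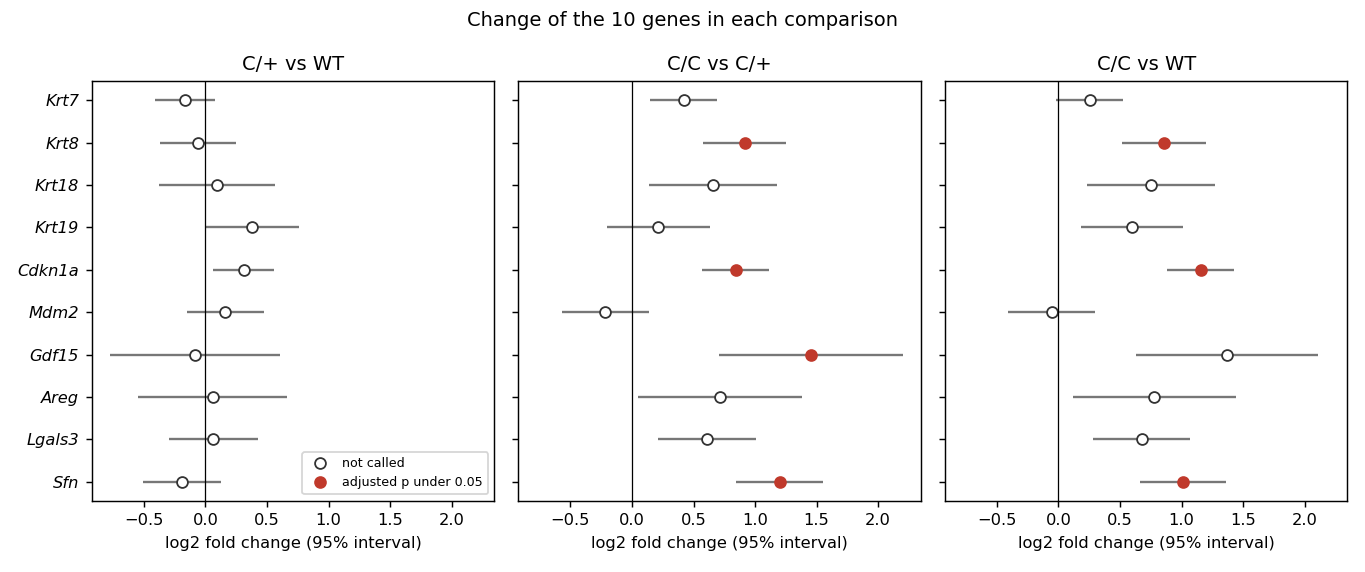
Fitted log2 fold change of each of the 10 genes in the 3 comparisons, with its 95% interval as a bar and filled points for genes called at an adjusted p under 0.05. Against C/+, C/C differs by 0.84 to 1.45 for the 4 called genes, while no point is filled between C/+ and WT.

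Counted together, C/C exceeded C/+ in 4 of the 10 genes past the test and fell below it in 0, where 1.75% of all tested genes were called higher. At an unadjusted p under 0.05 there were 8, against 20.9% of all tested genes. In 7 of 10 the libraries of the groups did not overlap, against 38.3% of all tested genes. The median log2 difference of the 10 was 0.69, against -0.01 over all genes tested. Between C/C and WT 3 of 10 were called higher, where 1.62% of all genes were called higher and 1.36% lower. At an unadjusted p under 0.05 there were 8, against 22.1% of all genes. The groups did not overlap for all but Mdm2, against 43.3% of all genes. The median there was 0.77, against -0.03 over all genes tested. These comparisons share the C/C libraries and are not independent of each other. Only 2 members were called against C/+ without C/C replicate 1 and 7 without C/+ replicate 1, and only 1 was called against WT without WT replicate 2, C/C replicate 1 or C/C replicate 2. DESeq2 called 7 of 10 in each of these comparisons, and it also called more of all tested genes than edgeR, as given below. The female libraries alone are only 2 each of C/C and C/+ and 1 of WT, and they are given below with the other settings. The mitochondrial share of counts was 2.90% to 3.31% in WT, 3.94% to 6.40% in C/+, and 4.92% and 6.67% in C/C, and its part in these differences was not tested.

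Between C/+ and WT, 0 of the 10 were called, where 3.92% of all tested genes were called, 3.42% as higher and 0.503% as lower in C/+. At an unadjusted p under 0.05 there were 2, Krt19 and Cdkn1a, against 20.1% of all tested genes, and DESeq2 called 0. The groups overlapped for every member, whereas 24.8% of all tested genes had no overlap. The widest intervals were those of Gdf15, from -0.78 to 0.61, and Areg, from -0.55 to 0.67. The narrowest was that of Krt7, from -0.41 to 0.08. Cdkn1a was the 1 member called without C/+ replicate 3, as given above. The intervals of Krt19, from 0.006 to 0.758, and Cdkn1a, from 0.062 to 0.560, lay above 0 before adjustment for all tested genes. For each gene, differences inside its interval are not excluded by these libraries.

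Compared per kilobase of the principal transcript, the order of levels was alike at its ends in all groups. Krt18 was highest at 164 ± 52.1 CPM per kilobase in WT (SD, n = 3), 176 ± 31.2 in C/+ (SD, n = 3) and 277 ± 29.4 in C/C (SD, n = 2), and Krt8 was next. Gdf15 was lowest at 4.78 ± 2.07, 4.50 ± 0.756 and 12.4 ± 2.88 in the same order of groups. In WT and in C/+ the libraries of Krt18 lay above those of Krt8, and those of Mdm2 above those of Gdf15. Most neighbours between those ends, from Krt8 down to Sfn in WT, overlapped. In C/C, Cdkn1a at 55.5 ± 0.367 CPM per kilobase ranked the fourth, after Lgals3 at 70.8 ± 8.12, whereas in WT it ranked the seventh at 24.9 ± 1.42. Cdkn1a, Areg, Krt19 and Sfn overlapped with their neighbours in the C/C order.

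Other p53 target genes moved in part. Of 26 further targets 25 were tested. C/C against C/+ gave 5 higher and 1 lower, where 1.75% of all tested genes were called higher and 5.33% lower. The median log2 difference was 0.20. Btg2, an antiproliferative gene that is also an immediate early gene, rose from 284 to 893 CPM (log2 1.65, edgeR adjusted p = 0.0163). Trp53inp1 rose from 39.9 to 86.3 CPM (log2 1.11, edgeR adjusted p = 0.00155), Sesn2 from 29.4 to 55.2 CPM (log2 0.91, edgeR adjusted p = 0.00228) and Gadd45a from 24.1 to 43.4 CPM (log2 0.85, edgeR adjusted p = 0.0217). Trp53inp1 promotes cell death and autophagy, Sesn2 is a sestrin that also responds to the integrated stress response, and Gadd45a acts in growth arrest and repair. The remaining calls were Plk3, a stress kinase, which rose from 6.78 to 39.1 CPM, and Fas, a death receptor, which fell from 9.89 to 3.70 CPM. Fas averaged 4.54 CPM in WT and was not called between C/C and WT (log2 -0.30, edgeR adjusted p = 0.593).

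Canonical targets that did not pass, chosen for mention after their values were seen, included Ccng1, with means of 54.1 CPM for C/+ and 58.4 CPM for C/C (log2 0.11, edgeR adjusted p = 0.648), and Bax, at 35.3 and 38.1 CPM (log2 0.11, edgeR adjusted p = 0.814). Zmat3 stood at 19.2 and 21.9 CPM (edgeR adjusted p = 0.548) and Phlda3 at 7.59 and 4.69 CPM (edgeR adjusted p = 0.174). At an unadjusted p under 0.05 there were 16 of the 25 between C/C and C/+, against 20.9% of all tested genes. Against WT, 5 of the 25 were called higher in C/C and 0 lower, where the shares of all tested genes were 1.62% and 1.36%. The 5 were Plk3 (log2 2.84), Gadd45a (0.92), Sesn2 (0.88), Trp53inp1 (0.88) and Perp (0.56), and the median over the 25 was 0.09. Between C/+ and WT the 1 call was Fas, higher in C/+ (log2 1.13, edgeR adjusted p = 0.0396), against 3.42% of all tested genes. The 6 calls against C/+ became 3 without C/+ replicate 2, C/C replicate 1 or C/C replicate 2. The 5 against WT became 3 without WT replicate 1 and 1 without WT replicate 2, C/C replicate 1 or C/C replicate 2, and the 1 between C/+ and WT became 3 without C/+ replicate 3 and 0 without WT replicate 2, WT replicate 3, C/+ replicate 1, C/+ replicate 2, C/C replicate 1 or C/C replicate 2.

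**Figure D3:**
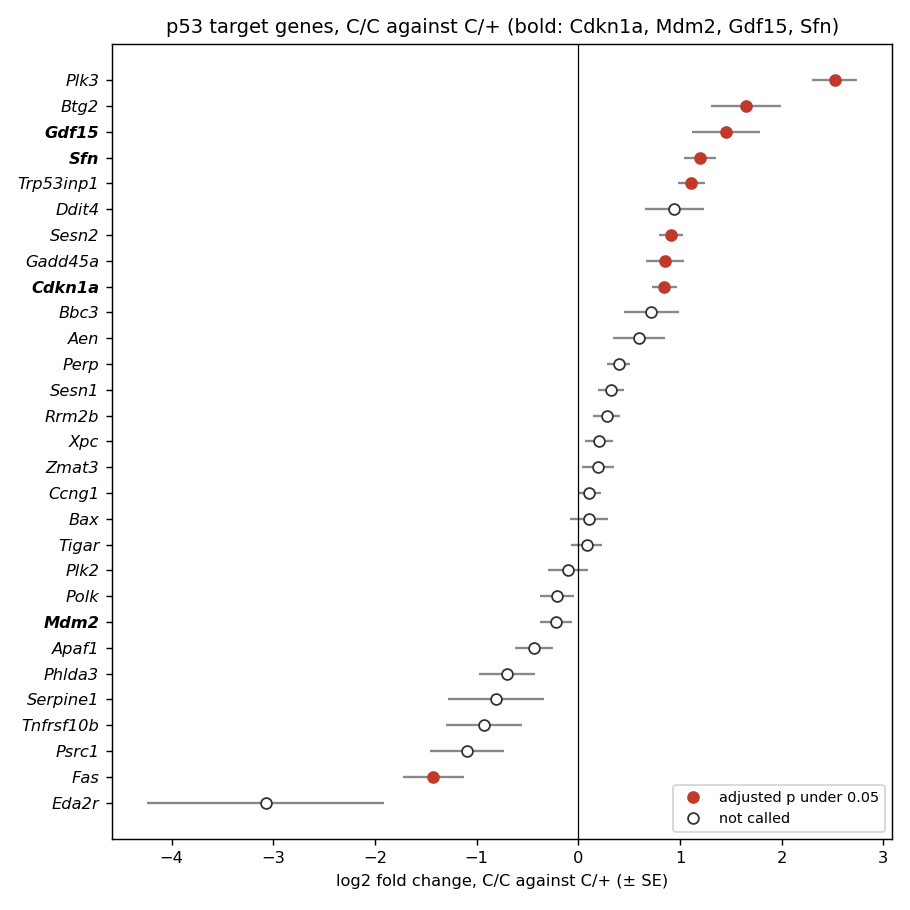
Log2 fold change between C/C and C/+ for Cdkn1a, Mdm2, Gdf15, Sfn and the other tested p53 targets, with the standard error as a bar and filled points for called genes. Plk3 at 2.52 is the highest called gene and Fas at -1.43 the 1 that is called lower, and Mdm2, Ccng1, Bax and Zmat3 sit near 0.

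Other genes of the transitional alveolar state were called in both directions. Of 19 tested, C/C was higher than C/+ for 1 and lower for 1, where 1.75% of all tested genes were called higher and 5.33% lower, and the median log2 difference was 0.07. At an unadjusted p under 0.05 there were 9 of the 19, against 20.9% of all tested genes, and DESeq2 called 2 higher and 4 lower. Fosl1, a subunit of AP-1, rose from 0.340 to 3.76 CPM (log2 3.53, edgeR adjusted p = 0.00384). Edn1, which encodes endothelin-1, fell from 9.91 to 2.52 CPM (log2 -1.97, edgeR adjusted p = 0.0171). Edn1 averaged 3.07 CPM in WT and was not called between C/C and WT (log2 -0.29, edgeR adjusted p = 0.723). Endothelial markers were likewise highest in C/+, and their part in the fall of Edn1 was not tested. Against WT, C/C was higher for Fosl1 (log2 2.89, edgeR adjusted p = 0.0209) and for the stress regulator Nupr1, from 279 to 445 CPM (log2 0.68, edgeR adjusted p = 0.0334). In this comparison 1.62% of all tested genes were called higher. Between C/+ and WT, Nupr1 (log2 0.51) and Edn1 (log2 1.68) were higher in C/+, where 3.42% of all tested genes were called higher. Among markers of the state that did not pass between C/C and C/+, chosen for mention after their values were seen, Cldn4 had means of 6.64 CPM for C/+ and 3.99 CPM for C/C (edgeR adjusted p = 0.112), Clu at 358 and 407 CPM (edgeR adjusted p = 0.474) and Hbegf at 31.9 and 79.2 CPM (edgeR adjusted p = 0.109). The 2 calls between C/C and C/+ became 0 without C/C replicate 1, 1 without C/+ replicate 2 or C/C replicate 2, and 4 without WT replicate 1 or WT replicate 3. Those against WT became 0 without WT replicate 2, C/C replicate 1 or C/C replicate 2, and 1 without C/+ replicate 2. Those between C/+ and WT became 0 without WT replicate 2, WT replicate 3 or C/+ replicate 2, and 1 without C/+ replicate 1, C/+ replicate 3, C/C replicate 1 or C/C replicate 2.

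Immediate early genes, which are induced within minutes in handled or stimulated cells, had their highest summed level in C/C, as did the 10 genes. Their summed level was 3371, 6307 and 9713 CPM in WT, 7325, 4485 and 4475 CPM in C/+, and 16970 and 13261 CPM in C/C. The summed level of the 10 genes was 639, 793 and 901 CPM in WT, 955, 731 and 739 CPM in C/+, and 1336 and 1180 CPM in C/C. In both sums WT replicate 1 was the lowest library, WT replicate 3 the highest of WT, C/+ replicate 1 the highest of C/+ and C/C replicate 1 the highest of all. Within WT not every member followed its sum, with Krt7 at 134, 133 and 126 CPM and Cdkn1a at 48.6, 54.3 and 52.6 CPM. The other members rose from WT replicate 1 through to replicate 3. Of 18 immediate early genes 8 were called higher in C/C than in C/+, against 1.75% of all tested genes. Among them were Zfp36, an mRNA decay factor, at 772 and 1845 CPM, and Nr4a1, an orphan nuclear receptor, at 273 and 804 CPM. Against WT 2 were called higher, Zfp36 and Jund, where 1.62% of all tested genes were. Between C/+ and WT 0 were called (0 at unadjusted p under 0.05 and 0 by DESeq2), against 3.92% of all tested genes. The part of this in the levels of the 10 genes was not tested.

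Genes of the integrated stress response belong to a translation programme that also induces Gdf15 and Sesn2. Their summed level was 690 to 1331 CPM in WT, 980 to 1282 CPM in C/+, and 2779 and 2039 CPM in C/C. Atf3, which is also in the immediate early list, made up much of this sum in C/C. It was at 63.9, 293 and 534 CPM in WT, 375, 153 and 142 CPM in C/+, and 1637 and 886 CPM in C/C. Atf3 was not called against C/+ (edgeR adjusted p = 0.0554) or WT (edgeR adjusted p = 0.1085). Of 13 tested, Ppp1r15a (124 and 225 CPM) and Sesn2 were called higher in C/C than in C/+, against 1.75% of all tested genes. Against WT 5 were called higher, where 1.62% of all tested genes were. Among them were Nupr1, Ppp1r15a, Sesn2 and Ddit3, the last from 11.1 to 16.6 CPM. The part of this response in the change of Gdf15 was not tested.

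**Figure D4:**
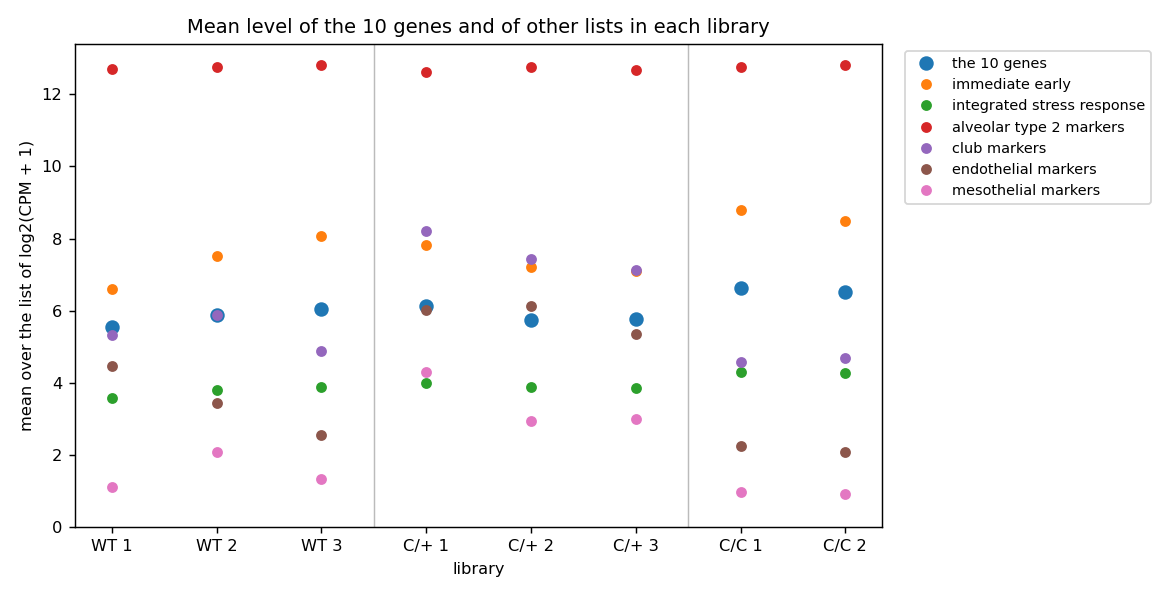
Mean log2(CPM + 1) of the 10 genes and of other gene lists in each of the 8 libraries, by group. The 10 genes and the immediate early genes have their highest values in both C/C libraries, at 6.61 and 6.51 and at 8.78 and 8.49, while endothelial and mesothelial markers are highest in C/+.

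Markers of the mesothelium, club cells and endothelium were lower in C/C than in C/+. The mesothelium also expresses Krt7, Krt8, Krt18 and Krt19, and its 7 markers summed to 9.31 to 32.1 CPM in WT, 69.4 to 206 CPM in C/+, and 8.28 and 7.17 CPM in C/C. All 7 were called lower in C/C than in C/+, opposite in sign to Krt8, where 5.33% of all tested genes were called lower. Of 10 club cell markers 8 were also called lower in C/C than in C/+, and Scgb1a1, the club cell secretory protein gene, was at 4482 to 8388 CPM in C/+ and 343 and 549 CPM in C/C. Endothelial markers were called lower for 10 of 10. C/+ replicate 1 held the highest mesothelial sum and was also the highest C/+ library for all of the 10 genes but Mdm2. The part of these cells in the C/+ levels was not tested. Alveolar type 2 markers summed to 183621 to 251839 CPM across the 8 libraries, and 0 of 10 were called in any comparison (2, 1 and 4 at unadjusted p under 0.05 in C/+ against WT, C/C against C/+ and C/C against WT, with 1, 0 and 3 by DESeq2). Alveolar type 1 markers summed to 2572 to 3708 CPM, with the C/C libraries at 3322 and 2928 CPM. Of 11 tested, Rtkn2 was called higher in C/C than in C/+ and Cav1 and Pdpn lower, where 1.75% of all tested genes were called higher and 5.33% lower. Cav1 averaged 29.1 (WT), 110.0 (C/+) and 16.3 CPM (C/C). Between C/+ and WT, Cav1 was called higher (log2 1.92) and Rtkn2 lower (log2 -1.335), where 3.42% and 0.503% of all tested genes were. Endothelial markers were likewise highest in C/+, and their part in the fall of Cav1 was not tested. Against WT, 1 was called lower, Clic5, at 98.3 and 67.6 CPM, against 1.36% of all tested genes, and 10 of the 11 differences were negative. Of the cell cycle genes, which p21 restrains, 11 of 16 were called higher in C/+ than in WT, against 3.42% of all tested genes. In C/C against WT 3 of 16 were called higher, where 1.62% of all tested genes were. Between C/C and C/+ 0 were called (7 at unadjusted p under 0.05 and 3 by DESeq2), against 7.08% of all tested genes.

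The genes most like each called member were sought among 8434 tested genes whose mean was 10 CPM or more, as those with the smallest root mean square difference of centred log2 CPM over the 8 libraries. For Cdkn1a these were Rcan1 (0.05), Tsc22d3 (0.14) and Ubb (0.17), and Rcan1 averaged 16.1 (WT), 20.5 (C/+) and 36.6 CPM (C/C). For Krt8 they were Osgin1 (0.10), Mcl1 (0.11) and Mafk (0.12), and Mcl1 averaged 286 (WT), 275 (C/+) and 505 CPM (C/C). For Sfn they were Lmna (0.10), Hspb8 (0.12) and Trp53inp1 (0.13), and Lmna averaged 80.9 (WT), 70.1 (C/+) and 152.5 CPM (C/C). For Gdf15 the nearest genes were less close, Ier2 (0.19), Nr4a1 (0.24) and Zfp36 (0.26), all of them immediate early genes. These distances come from the same 8 libraries as the comparisons and are a description.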

How the data were processed

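RNA of sorted lung cells was made into stranded mRNA libraries, per the labels' protocols. The authors deposited counts per gene, whole numbers that were not normalised. The submitters' processing notes name STAR 2.4.2a and DESeq2 with no role, and the build GRCh38, a human build, although the identifiers are those of mouse. Which counter, strand setting and annotation were used is not given in the sources used here. Annotated genes on the opposite strand overlap exons of Krt7, Krt8 and Cdkn1a and are not analysed here, so their reads cannot be told apart if strand was not used. Symbols and positions came from GENCODE M21 (GRCm38), which matched 42462 of 43432 identifiers, and promoters from RefSeq GRCm38.p6.

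Genes were filtered by group with filterByExpr, leaving 14906, and scaled by TMM (0.915 to 1.06). A single edgeR 4.0.16 quasi-likelihood fit (R 4.3.3) held all 8 libraries with 1 coefficient for each group, and each of 3 comparisons was tested with a two-sided F test. A call is a Benjamini-Hochberg adjusted p under 0.05 over all tested genes. At total counts of 17057216 to 52319957 per library, each member had enough reads that the spread between libraries, not counting error, set the precision. No libraries were duplicates (chi-square per gene 12.3 to 73.5 between replicates). Same-numbered libraries did not deviate together (correlation across genes -0.21 to 0.09), so numbers were not used as pairs. Levels per length are CPM per kilobase of the principal transcript. The members and gene lists were chosen with earlier results of these data known. All members are named. From each other list, per comparison, up to 4 called genes of highest mean CPM are named, or up to 2 where none was called. Genes outside this rule were chosen after their values were seen. They are Plk3, Trp53, Atf3, Fas in C/C, Edn1 between C/C and WT, and those so marked in the text. Chia1, Epcam and Ptprc are named as checks of the labels. Most alike genes needed a mean of at least 10 CPM. Alternatives were size factors, no filter or one of 1 CPM in 2 libraries, a fit on only the groups compared, replicate numbers as a block, sex as a covariate, each library left out, DESeq2 1.42.0 and, chosen after seeing the data, the female libraries alone.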

Additional observations from a re-analysis of the deposited data

How the results depend on the processing

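With so few libraries, and 2 in C/C, counts of calls moved more than fold changes. Over the 16 settings Cdkn1a and Sfn kept their call between C/C and C/+, and Cdkn1a that against WT. Labels give no sex, and both C/C libraries read as female, so sex and genotype overlap in part.

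Between C/+ and WT, 585 genes were called in all (510 higher), and this became 1299 with no low-count filter (944 higher), 356 with the compared groups alone, 1700 with sex as a covariate (1047 higher), 1263 with DESeq2 (914 higher), 58 in female libraries alone and 103 to 729 with 1 library left out. Members called went from 0 to 2 with sex and 0 to 1 with 1 library left out. Other p53 targets went from 1 to 3 with no filter, 0 with the compared groups alone, 4 with sex, 4 with DESeq2, 0 in female libraries and 0 to 3 with 1 library left out. Other transitional state genes went from 2 to 4 with no filter, 1 with the compared groups alone, 1 with the replicate block, 0 in female libraries and 0 to 2 with 1 library left out.

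Between C/C and C/+, 1056 genes became 1614 with no filter, 1609 with DESeq2 and 185 to 1308 with 1 library left out. Members went from 4 to 8 with no filter, 8 with sex, 7 with DESeq2, 8 in female libraries and 2 to 7 with 1 library left out. The p53 targets went from 6 to between 3 and 8 with 1 library left out. Transitional genes went from 2 to 9 with no filter, 5 with the compared groups alone, 5 with sex, 6 with DESeq2, 5 in female libraries and 0 to 4 with 1 library left out.

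Between C/C and WT, 444 genes became 1456 with no filter, 176 with the replicate block, 1348 with sex, 1470 with DESeq2 and 30 to 782 with 1 library left out. In both comparisons with WT the female libraries hold 1 of WT, replicate 1, whose spread is taken to be that of the other groups. Members went from 3 to 8 with no filter, 8 with sex, 7 with DESeq2, 8 in female libraries and 1 to 4 with 1 library left out. The p53 targets went from 5 to 3 with the replicate block and 1 to 6 with 1 library left out. Transitional genes went from 2 to 7 with no filter, 1 with the replicate block, 5 with sex, 4 with DESeq2, 5 in female libraries and 0 to 3 with 1 library left out. The cause of these moves was not tested.

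Signs that turned were all of differences that did not pass. Between C/+ and WT, Krt8 became 0.061 with sex and 0.092 in female libraries, and ran from -0.18 to 0.049 with 1 library left out. Gdf15 became 0.02 with the replicate block, 0.26 with sex and 0.75 in female libraries, and ran from -0.41 to 0.19. With 1 library left out, Krt18 ran from -0.13 to 0.33, Mdm2 from -0.022 to 0.28, Areg from -0.32 to 0.34 and Lgals3 from -0.12 to 0.18. Between C/C and WT, Mdm2 became 0.05 with the replicate block and 0.10 in female libraries, and ran from -0.14 to -0.01 with 1 library left out. Besides these and the Krt8 call against WT, the block changed no member's call or direction.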
